A study of Homo sapiens with 8 samples.

Results

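Ramos cells come from Burkitt lymphoma, which arises in germinal centre B cells and in which an immunoglobulin locus drives MYC. The 2 Ramos arrays of the series were compared with each other, gene by gene, as rep 2 minus rep 1. Every probe set paired with exactly 1 gene symbol was eligible, and each gene was represented by its probe set with the highest mean over both arrays. This gave 17958 genes, which were all the genes named in the series. The other 6 arrays held KMH2, a line from Hodgkin lymphoma, with 3 control arrays and 3 arrays of cells kept for 24 h with glucosamine, numbered as biological replicates by the design text. All cells were grown in the same supplemented RPMI medium, and no source used here gives the glucosamine dose.

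The sources disagree about what separates the Ramos arrays. The titles, descriptions and source names call both of them control, while the design text counts 1 of the pair as untreated and 1 as treated with glucosamine for 24 h, without saying which. The treatment protocol attached to each sample names glucosamine for every array of the series, the KMH2 controls included. No treatment was therefore assigned to either Ramos array, and none was read from its values. With 1 array on each side there is no test of the difference, and a treatment, the culture, the RNA preparation and the array cannot be told apart as its source. In RNA from bulk cultures, fewer cells of a kind and less RNA per cell cannot be told apart either.

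Several gene programs described here are linked in B-cell lymphoma. MYC raises ribosome production, nucleotide synthesis and glycolysis, and dividing cells need the DNA replication machinery and histones in S phase. Cholesterol synthesis is switched on by SREBP-2, the product of SREBF2, when sterols in the endoplasmic reticulum run low. ATF4 is translated when amino acids are short or the endoplasmic reticulum is stressed, and it raises genes of amino acid uptake and synthesis. Glucosamine is an amino sugar that cells phosphorylate and feed into the hexosamine pathway, which supplies the sugar for N-glycans and for O-GlcNAc on proteins. TXNIP and its relatives ARRDC3 and ARRDC4 are arrestin-domain proteins, and TXNIP and ARRDC4 are raised by MondoA when sugar phosphates accumulate.

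Values are log2 signals per probe set, so a difference of 1 is a 2-fold difference, and levels of different genes are not compared. A gene was counted in a list when its arrays differed by at least 1.5-fold (0.585 on the log2 scale), and 2-fold was used for leading genes. The noise reference was the set of 3 pairwise differences between the KMH2 control replicates for the same probe set, and it comes from another cell line. A Ramos difference was said to lie past the noise when it was larger in size than all 3. By that rule alone 10254 of the 17958 genes (57.1%) lay past the noise.

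Both arrays carried the markers of their label. MS4A1, the B-cell surface protein CD20, was at 11.04 on rep 1 and 10.83 on rep 2, against 3.70 ± 0.14 in KMH2 control (SD, n = 3). CD79A, CD79B, PAX5, MME, BCL6 and CD38 were also higher on both Ramos arrays than in KMH2 control, by 2.79 (BCL6) to 6.04 (CD79A) on the mean of the arrays. TNFRSF8, the Hodgkin marker CD30, differed from KMH2 control by -2.87 and FSCN1, also high in Hodgkin cells, by -4.11. The other Hodgkin markers, GATA3, ID2, CSF1R and CCL17, were lower on both Ramos arrays too, with CCL17 the closest (-0.73). Of the B-cell genes, IGHM was higher by 2.40 and MYC by 0.81. Among genes that separated the lines by at least 16-fold, the 77 higher in Ramos had a median rep 2 minus rep 1 of -0.07 and the 167 higher in KMH2 one of -0.04. Of the 77, 14 were at least 1.5-fold higher on rep 2 and 12 lower, with quartiles of -0.43 and 0.27, and of the 167, 9 were higher and 8 lower, with quartiles of -0.20 and 0.15. Array medians over all probe sets were 5.66 on rep 1 and 5.68 on rep 2.

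The Ramos arrays differed far more than replicates of KMH2 did. Between them 1989 genes were past 1.5-fold and 479 past 2-fold. The 3 pairs of KMH2 control replicates had 150, 149 and 5 genes past 1.5-fold, and 26, 32 and 0 past 2-fold. Pairs of KMH2 glucosamine replicates had 317, 243 and 9 past 1.5-fold. In both KMH2 groups the wider pairs were those that included replicate 1. The SD of the Ramos difference over genes was 0.38, against 0.16, 0.16 and 0.11 between KMH2 controls.

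**Figure D1:**
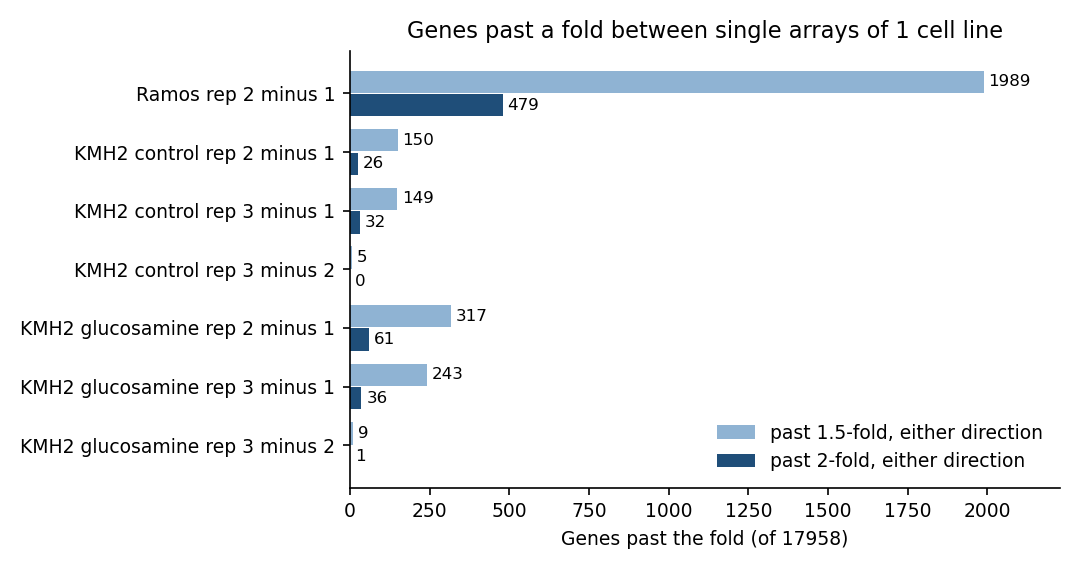
Genes past 1.5-fold (light bars) and past 2-fold (dark bars) in either direction between single arrays of the same cell line and label, of 17958 genes. The Ramos bars reach 1989 and 479 genes, and the longest KMH2 bars reach 317 and 61.

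Differences ran in both directions in similar number. Higher on rep 2 by at least 1.5-fold were 914 genes (5.09% of all genes), and lower were 1075 genes (5.99%). Those shares are the reference for the counts of list members given below. At least 2-fold higher were 252 genes (1.40%) and at least 2-fold lower were 227 (1.26%). Past 1.5-fold and past the noise were 1977 genes (11%), and all 479 genes past 2-fold were among them. The same rule applied to pairs of KMH2 glucosamine replicates gave 267, 197 and 8 genes. The median over all genes was -0.01, and medians of single chromosomes lay between -0.03 (chromosome 2) and 0.01 (chromosome 13), so no chromosome stood off as a block. Dim genes contributed little. With genes ranked by signal into 5 bins, 1.36% of the lowest bin were past 1.5-fold, and 21.7% of the bin between 6.92 and 8.57.

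**Figure D2:**
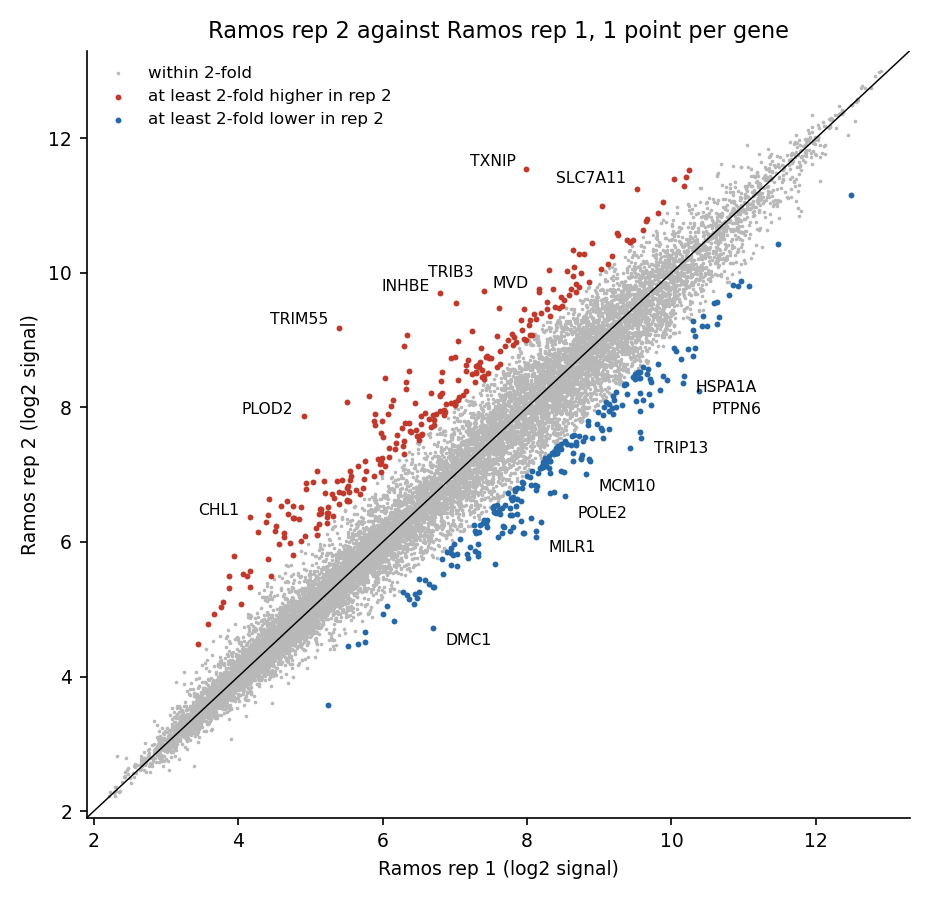
Log2 signal of each gene on Ramos rep 1 (horizontal) and Ramos rep 2 (vertical), with the line of equality. Red and blue points are at least 2-fold higher or lower on rep 2, TRIM55 and TXNIP stand farthest above the line and PTPN6 is among those farthest below it; Y-linked genes and XIST are not drawn.

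The widest difference was that of TRIM55 (probe set 8146669), a muscle RING-finger protein, which went from 5.40 on rep 1 to 9.18 on rep 2, a 13.7-fold difference. The KMH2 control replicates differed by at most 0.08 for this probe set, and all 6 KMH2 arrays lay between 4.40 and 4.60. TXNIP (probe set 7904726), which binds thioredoxin and restrains glucose uptake, followed with 7.99 on rep 1 and 11.54 on rep 2, an 11.7-fold difference. In KMH2 TXNIP was low with and without glucosamine, at 4.52 ± 0.05 and 4.51 ± 0.07 (SD, n = 3 each). PLOD2, a lysyl hydroxylase of collagen, was 7.82-fold higher, and INHBE, a subunit of activin E and an ATF4 target, was 7.52-fold higher. The other leading genes higher on rep 2 differed by 2.05 to 2.74 on the log2 scale. They were TMEM140, TCP11L2, CAB39L, which belongs to the LKB1 kinase complex, CRIM1, XKR3, KLHL4, TRIB3, CHL1, ZNF521, the receptor of endoplasmic reticulum autophagy CCPG1 and the chromatin organiser SATB1. All 15 lay past the noise, as the rule for naming them required.

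PTPN6 led the genes that were lower on rep 2. It encodes SHP-1, a phosphatase that restrains B-cell receptor signalling, and went from 10.38 to 8.25 (-2.13). MILR1, an inhibitory immunoglobulin-like receptor, went from 8.12 to 6.07, and TRIP13, an ATPase of the spindle checkpoint, from 9.58 to 7.54. ACAD9, a mitochondrial acyl-CoA dehydrogenase needed to assemble complex I, went from 9.43 to 7.39. The recombinase gene DMC1 (-1.99), the DNA polymerase subunit POLE2 (-1.84) and the replication factor MCM10 (-1.80) were also among the 15 lowest. Others were the small nucleolar RNAs SNORD14E (-1.96) and SNORA38B (-1.93), the methionine adenosyltransferase MAT1A (-1.90), the arginine methyltransferase PRMT6 (-1.88), the ketone body enzyme BDH1 (-1.83), the granzyme B inhibitor SERPINB9 (-1.81) and the heat shock gene HSPA1A (-1.80). HSPA1A has a near-identical copy, so which copy differed is uncertain.

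**Figure D3:**
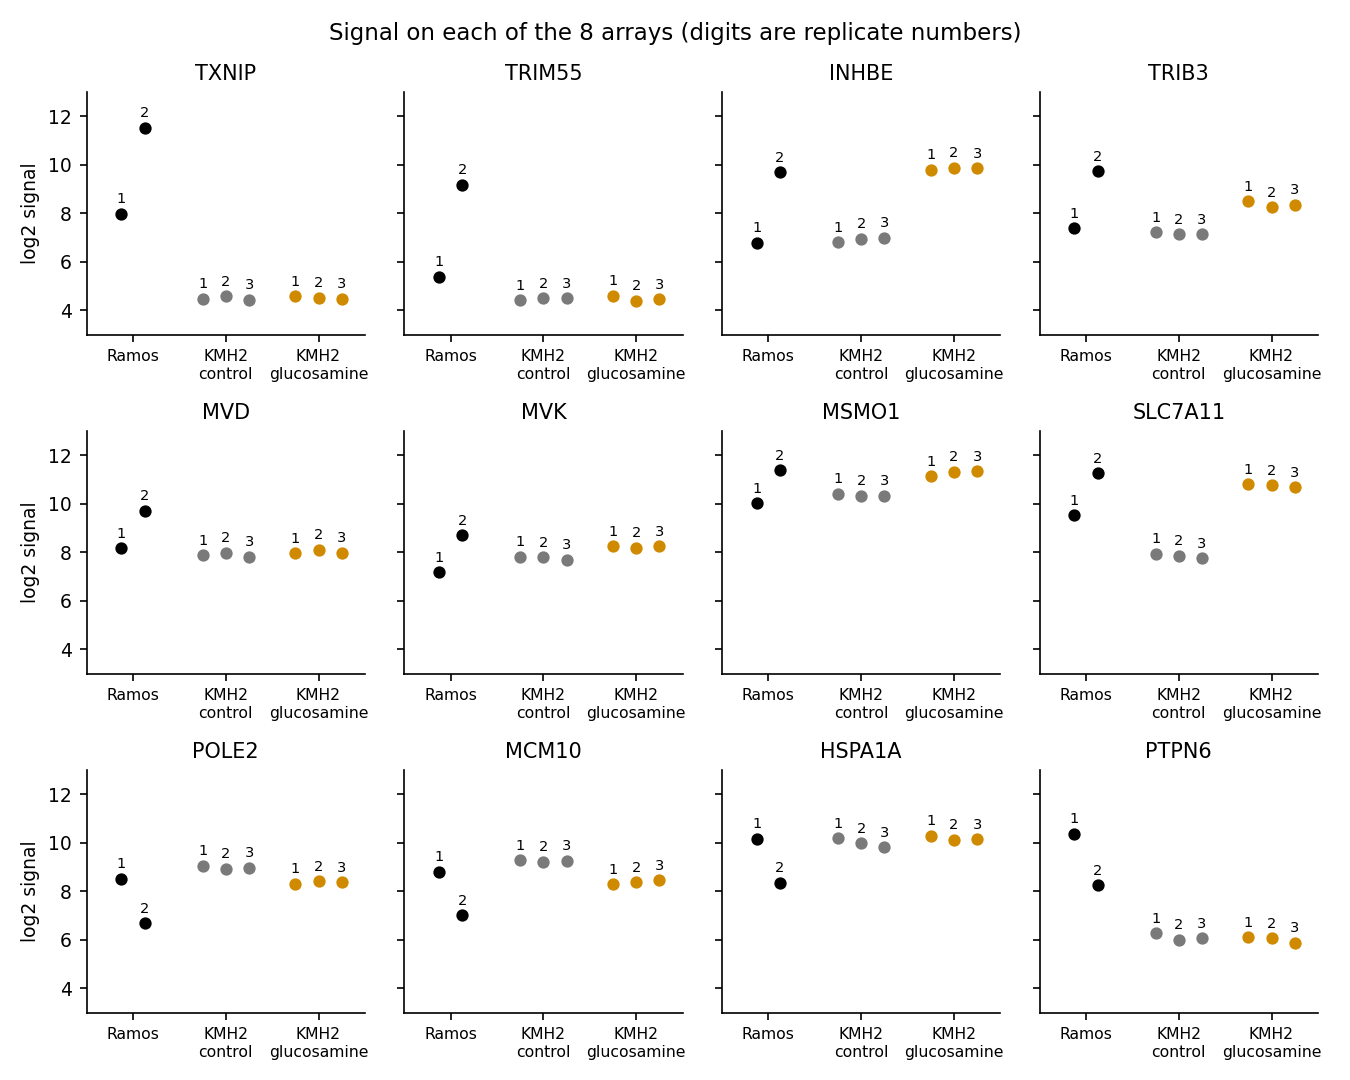
Log2 signal of 12 genes on each of the 8 arrays, with the replicate number above each point. TXNIP and TRIM55 separate the Ramos arrays while the 6 KMH2 arrays stay between 4.40 and 4.60, and INHBE, TRIB3 and SLC7A11 separate both the Ramos arrays and the KMH2 groups.

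Cholesterol synthesis had the highest median of all the lists described here. Of its 16 measured genes 14 were at least 1.5-fold higher on rep 2 and 0 were lower, with a median of 1.14 against -0.01 over all genes. MVD, which decarboxylates mevalonate diphosphate, went from 8.17 to 9.71, and MVK, mevalonate kinase, from 7.19 to 8.71. LSS, which closes the sterol ring, went from 7.92 to 9.30 and MSMO1, a sterol demethylase, from 10.03 to 11.39. Rep 2 was thus the higher array at early and late steps of the pathway. SQLE, the squalene epoxidase, went from 9.65 to 10.76, and the differences of HMGCS1 and IDI1 at the start of the pathway were 0.90 and 0.65. CYP51A1 (1.30), DHCR7 (1.23), SC5D (1.17) and NSDHL (0.95), which process the sterol ring, were also higher. So were STARD4, a sterol carrier (1.27), INSIG1, which holds SREBP in the endoplasmic reticulum (0.93), and SREBF2 itself, from 9.46 to 10.26. Exceptions were FDPS, farnesyl diphosphate synthase, at 0.54 and PMVK, phosphomevalonate kinase, at -0.54, both within 1.5-fold. All 16 lay past the noise, and medians of the list between KMH2 control replicates ran from -0.03 to 0.00. EBP, a sterol isomerase that is not on the list and was chosen after its value was seen, was higher by 1.04.

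Genes near this pathway were mixed. NPC1, which exports cholesterol from lysosomes, went from 8.31 to 10.04 (1.73), and its partner NPC2 was higher by 0.94. ABCA1, a cholesterol exporter and target of the liver X receptor, went from 6.00 to 7.56. That list of 10 genes had 2 higher (20%, beside 5.09% of all genes) and 1 lower (10%, beside 5.99%), with a median of 0.03. Fatty acid synthesis and desaturation had 4 of 24 genes higher (16.7%), led by ACSL1 (0.82) and MID1IP1 (0.70). Lower were 2 (8.33%), the desaturases FADS2 (-0.66) and FADS1 (-0.65). The median there was 0.19, and FASN, fatty acid synthase, differed by 0.41. These last lists were added after the values were seen.

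The starts of these genes were read for the letters that SREBP-2 and its partner NF-Y are known to bind. RefSeq promoters (GRCh38.p14) were available for 13843 genes, and the 250 bases before each start were searched on both strands. CCAAT, the NF-Y letters, stood before 12 of 15 cholesterol genes (80.0%) and before 34.5% of all genes. It was not particular to genes higher on rep 2. CCAAT stood before 38.3% of the genes at least 2-fold higher and 42.5% of those at least 2-fold lower. Among the DNA replication genes, described further on and mostly lower on rep 2, the share was 59.4%. TCACNCCAC, a form of the sterol regulatory element, stood before 1 of 15, SREBF2, and before 0.874% of all genes. A match is a description of letters, not of a bound site. The promoters of MVD, the cholesterol gene with the widest difference, and of SREBF2 are shown 5′ to 3′ on the strand of the gene. Capitals mark CCAAT, which reads ATTGG on the other strand, and in SREBF2 also the sterol regulatory element. MVD lies at chr16:88663092-88663341 on the minus strand and SREBF2 at chr22:41832855-41833104 on the plus strand.
MVD: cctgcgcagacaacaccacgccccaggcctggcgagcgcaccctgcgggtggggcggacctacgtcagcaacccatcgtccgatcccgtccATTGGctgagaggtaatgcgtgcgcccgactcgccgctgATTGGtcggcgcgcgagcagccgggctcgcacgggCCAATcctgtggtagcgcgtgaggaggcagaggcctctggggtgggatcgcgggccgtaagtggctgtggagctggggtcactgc
SREBF2: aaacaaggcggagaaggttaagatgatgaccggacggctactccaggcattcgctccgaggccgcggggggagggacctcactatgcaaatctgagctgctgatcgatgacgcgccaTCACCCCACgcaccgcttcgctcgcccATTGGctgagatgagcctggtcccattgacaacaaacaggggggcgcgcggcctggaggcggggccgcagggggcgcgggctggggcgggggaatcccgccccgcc

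ATF4 targets were split between a strong group on the higher side and a few lower genes. Of 42 measured, 15 were higher on rep 2 (35.7%, beside 5.09% of all genes) and 4 lower (9.52%, beside 5.99%). The median was 0.29. INHBE went from 6.80 to 9.71 and TRIB3, a pseudokinase that restrains ATF4, from 7.40 to 9.73. Of 9 amino acid carriers on the list 5 were higher. SLC6A9, the glycine transporter, went from 7.04 to 8.99, SLC7A11, which imports cystine, from 9.52 to 11.25, and SLC38A2, a neutral amino acid carrier, from 10.25 to 11.52. SLC3A2 (0.84) and SLC1A4 (0.60) were also past 1.5-fold, while SLC1A5 (0.52), SLC7A1 (0.36), SLC7A5 (0.16) and SLC7A3 (0.08) were within it. ASNS, asparagine synthetase, was higher by 0.75, PHGDH, the first enzyme of serine synthesis, by 0.60, and the stress factor DDIT3, or CHOP, by 0.84. SESN2, a brake on mTORC1, was higher by 1.21 and CHAC1, which degrades glutathione, by 0.92.

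On the lower side were PSPH, the last enzyme of serine synthesis (-1.02), DDIT4 (-0.92), another brake on mTORC1, the cytokine GDF15 (-0.71) and ALDH18A1, of proline synthesis (-0.63). CTH, which makes cysteine, was at 5.36 and 5.41, a difference of 0.05 within the noise. Other stress lists with ties to ATF4 differed less. Cytosolic tRNA synthetases had 4 of 19 genes higher (CARS1 0.82, WARS1 0.81, SARS1 0.79 and AARS1 0.75) and 3 lower, led by FARSB (-0.87). These were 21.1% and 15.8% of the list, beside 5.09% and 5.99% of all genes, with a median of 0.09. Chaperones and unfolded protein response genes of the endoplasmic reticulum had 3 of 38 higher, SEL1L (1.07), ERN1 (0.90) and DNAJB9 (0.72), and 2 lower, with a median of 0.17. Those shares, 7.89% and 5.26%, were near the 5.09% and 5.99% of all genes. HSPA5, the main chaperone of the endoplasmic reticulum, was at 11.42 and 11.60.

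NRF2 drives antioxidant genes, and of its 19 measured targets 6 were higher and 0 lower, with a median of 0.19. GCLM, of glutathione synthesis, went from 7.82 to 9.05, and SLC48A1 (1.04), OSGIN1 (0.96), SRXN1 (0.88) and TXNRD1 (0.70) followed. SLC7A11 stands on this list as well as on that of ATF4. HMOX1, the inducible haem oxygenase, was at 5.95 and 5.93.

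Sugar-responsive genes differed unevenly. The MondoA list of 16 had 3 genes higher (18.8%, beside 5.09% of all genes) and 1 lower (6.25%, beside 5.99%). Its median was 0.14, with 12 differences positive and 4 negative, and TXNIP stood far above the others. A Ramos array was at or above its median for 10 of the 16. ARRDC3 went from 8.78 to 10.28 and HBP1, a repressor of the cell cycle, was higher by 0.85, while TKFC, a triose kinase, was lower (-0.75). ARRDC4 was dim on both arrays, at 4.0 and 4.54. TXNIP also stands on the FOXO list, described further on. Before the start of TXNIP stands a pair of CACGNG letters 5 bases apart, the layout of the carbohydrate response element that MondoA binds. The same layout stood before 15 of the 13843 genes (0.108%), on either strand, and GFPT1 was among them. TXNIP was the only gene of the MondoA list among the 15. Of 193 searched genes at least 2-fold higher on rep 2, it was the only 1 with the layout (0.518%). The TXNIP promoter at chr1:145996580-145996829, on the minus strand, is shown with that element in capitals.
TXNIP: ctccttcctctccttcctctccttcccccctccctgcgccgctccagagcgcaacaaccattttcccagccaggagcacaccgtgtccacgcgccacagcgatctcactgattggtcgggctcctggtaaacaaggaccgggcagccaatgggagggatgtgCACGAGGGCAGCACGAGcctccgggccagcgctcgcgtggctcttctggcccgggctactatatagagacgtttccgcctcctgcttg

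Hexosamine pathway genes also went both ways. Of 17 measured, 2 were higher (11.8%, beside 5.09% of all genes) and 3 lower (17.6%, beside 5.99%), with a median of -0.18. OGA, which removes O-GlcNAc, went from 8.55 to 10.03, and GNE, which starts sialic acid synthesis, from 8.49 to 9.50. OGT, which adds O-GlcNAc, was at 9.13 and 9.45, and GFPT1, which sets the pace of the pathway, at 9.57 and 10.04, both within 1.5-fold. Lower were HK2 (-1.48), a hexokinase, UAP1, which makes the activated sugar (-0.80), and GNPDA1 (-0.69), which returns glucosamine phosphate to glycolysis.

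Of 20 glycolysis genes 7 were lower on rep 2, 2 higher and 11 within 1.5-fold, with a median of -0.41. HK2 went from 9.69 to 8.20, and PFKFB4, which tunes phosphofructokinase, from 8.32 to 7.21. PGK1 (-0.88), PFKFB3 (-0.83), PFKL and PFKP (-0.74 each) and LDHA (-0.68) were the others. The higher genes were the enolase ENO2 (0.79) and the glucose transporter SLC2A3 (0.65), whereas SLC2A1, the main transporter, was at 11.19 and 10.66. Among 27 targets of hypoxia signalling 5 were lower (18.5%, beside 5.99% of all genes) and 1 higher (3.70%, beside 5.09%). The median was -0.16. HILPDA, a lipid droplet protein, went from 8.87 to 7.21 and PDK1, which keeps pyruvate out of mitochondria, from 10.48 to 9.21.

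**Figure D4:**
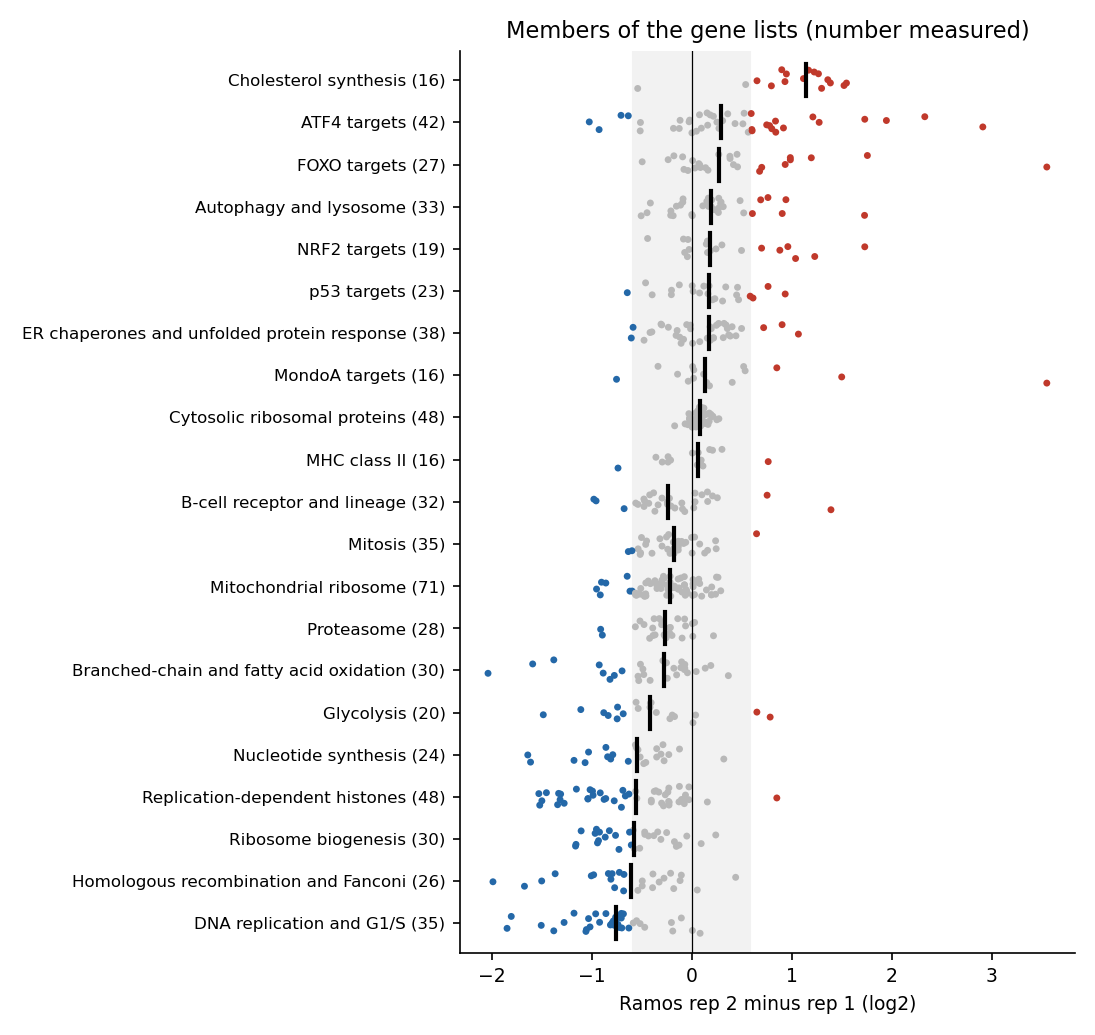
Ramos rep 2 minus rep 1 (log2) for the measured members of 21 gene lists, 1 point per gene, with the list median as a black bar, the number measured in brackets and the range within 1.5-fold shaded. Red points are at least 1.5-fold higher and blue points at least 1.5-fold lower on rep 2; cholesterol synthesis has a median of 1.14 and DNA replication one of -0.76.

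DNA replication had the lowest median of these lists (-0.76). Of 35 genes 26 were lower on rep 2 and 0 higher. POLE2 went from 8.52 to 6.68, MCM10 from 8.81 to 7.01 and POLA1, the catalytic subunit of the primase polymerase, from 9.05 to 7.54. UHRF1, which carries DNA methylation through replication, went from 9.18 to 7.91. The helicase genes MCM4 (-1.38), MCM3 (-0.96), MCM7 (-0.81), MCM2 (-0.80) and MCM5 (-0.68) were lower, and MCM6 differed by -0.47. The loading factors were less uniform, with CDC6 at -0.77 but ORC1 at -0.10, ORC6 at -0.20 and CDT1 at 0.08. Of the cyclins that open S phase, CCNE1 differed by -0.63 and CCNE2 was at 7.24 and 7.25.

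E2F factors are known to switch on this group, and their letters were searched in the same windows. TTTGGCGC stood before 6 of 32 replication genes (18.8%) and 0.701% of all genes, and TTTCCCGC before 7 of 32 (21.9%) and 1.94% of all genes. Before all genes at least 2-fold lower on rep 2 the shares were 3.31% and 1.10%. Before those at least 2-fold higher they were 1.04% and 2.07%. CDT1, at 0.08, had a match, and MCM10, at -1.80, had neither. POLA1 at chrX:24693668-24693917 and UHRF1 at chr19:4909251-4909500, both on the plus strand, are shown with the match in capitals, which reads as its complement on the strand printed.
POLA1: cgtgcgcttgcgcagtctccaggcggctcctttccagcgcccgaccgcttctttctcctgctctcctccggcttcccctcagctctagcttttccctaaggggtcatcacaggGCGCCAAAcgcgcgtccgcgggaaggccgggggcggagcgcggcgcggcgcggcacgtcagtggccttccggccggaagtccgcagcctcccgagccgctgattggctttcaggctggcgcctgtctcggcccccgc
UHRF1: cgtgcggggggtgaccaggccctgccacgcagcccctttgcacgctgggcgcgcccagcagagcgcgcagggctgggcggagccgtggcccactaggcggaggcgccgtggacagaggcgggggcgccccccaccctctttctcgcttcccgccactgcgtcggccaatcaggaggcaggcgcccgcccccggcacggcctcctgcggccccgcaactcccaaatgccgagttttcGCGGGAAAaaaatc

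Other genes of S phase were lower as well. Replication-dependent histones had 23 of 48 genes lower and 1 higher, with a median of -0.55. H2AC12 went from 7.65 to 6.13 and H2AC4 from 8.75 to 7.23, while H3C6, the exception, was dim at 3.56 and 4.41. Histone genes are near-identical, so single members are uncertain. Homologous recombination and Fanconi genes, a list added after the values were seen, had 13 of 26 lower and 0 higher, with a median of -0.61. Besides DMC1 they included XRCC2, from 9.71 to 8.04, the nuclease EXO1 (-1.50), RAD54L (-1.36) and BRCA1 (-0.72). Nucleotide synthesis, also added later, had 10 of 24 lower and 0 higher, with a median of -0.54. PFAS, of purine synthesis, went from 8.86 to 7.23 and DHODH, of pyrimidine synthesis, from 7.92 to 6.31. RRM2, TK1 and TYMS stand on both this list and that of replication.

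Genes of mitosis differed much less. Of 35 only ECT2 (-0.60) and MAD2L1 (-0.63) were lower and CENPA (0.65) was higher, and the median was -0.18. The shares, 5.71% lower and 2.86% higher, were no larger than the 5.99% and 5.09% of all genes. MAD2L1 lay within 1.5-fold after quantile normalization (-0.58).

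Factors that make ribosomes were lower, and ribosomal proteins were not. Of 30 factors of ribosome biogenesis 14 were lower and 0 higher, with a median of -0.58. NAT10, which acetylates ribosomal RNA, went from 10.04 to 8.88, and POLR1A, the largest subunit of RNA polymerase I, from 9.05 to 7.89. RRP12 (-1.10), POLR1B (-0.96), NOP16 (-0.95) and UTP20 (-0.93) followed. Of 48 cytosolic ribosomal proteins 0 were past 1.5-fold in either direction, with a median of 0.09 and a range from -0.17 to 0.27. Small nucleolar and Cajal body RNAs, which guide the modification of ribosomal and spliceosomal RNA, had 7 of 204 higher (3.43%) and 12 lower (5.88%). Those shares were no larger than the 5.09% and 5.99% of all genes, and the median was -0.02. SNORD14E and SNORD14C (-1.35) sit in introns of HSPA8, which was itself at 12.50 and 12.49.

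MYC was at 10.40 on rep 1 and 9.72 on rep 2, a difference of -0.68 that lay past the noise. MXD1 and MXD4, 2 of its antagonists, which compete for the partner MAX, went the other way, from 6.27 to 7.70 and from 6.23 to 7.22. MXD3, MXI1, MNT and MGA, also on the list of the MYC network, were within 1.5-fold. Among all 21 genes of the MYC network 2 were higher and 3 lower (MYC, CDC25A and LDHA), with a median of -0.22. Those shares, 9.52% and 14.3%, stood beside 5.09% and 5.99% of all genes. MAX differed by -0.13 and the targets CAD and ODC1 by -0.31 and -0.05.

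Of 30 genes of branched-chain amino acid and fatty acid oxidation, a list added after the values were seen, 8 were lower and 0 higher, with a median of -0.28. ACAD9, ACADSB, which oxidises short branched acyl chains and went from 7.81 to 6.22, and BCKDHB, of the branched-chain dehydrogenase (-1.38), led it. CPT2, which admits fatty acids to the mitochondrion, differed by -0.82. The respiratory chain had 2 of 30 lower (6.67%, near the 5.99% of all genes) and 1 higher, with a median of -0.11. Mitochondrial ribosomal proteins, again added later, had 7 of 71 lower (9.86%) and 0 higher, led by MRPL1 (-0.95), with a median of -0.22. The proteasome had 2 of 28 lower, PSMD1 (-0.91) and PSMC3 (-0.89), again a share near that of all genes (7.14%), with a median of -0.27.

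Heat shock genes were lower in 3 members. HSPA1A went from 10.16 to 8.36, DNAJB1, its co-chaperone, from 10.29 to 8.76, and HSPE1, the mitochondrial co-chaperonin, from 9.51 to 8.52. The KMH2 control replicates differed by up to 0.36, 0.55 and 0.28 for these genes. The other 14 of the 17 were within 1.5-fold, and the median was -0.16. Immediate early genes had 4 of 32 lower, the phosphatase DUSP2 (-1.14), MYC, EGR1, from 9.12 to 8.48, and FOS (-0.59). The only higher gene was JUND (0.79), and the median was -0.05. The lower genes were 12.5% of the list, beside 5.99% of all genes.

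The lists of FOXO targets, autophagy and lysosome, p53 targets and the BCL2 family each had more genes higher than lower. Of 27 FOXO targets, a list added after the values were seen and which includes TXNIP, 8 were higher and 0 lower, with a median of 0.27. SESN3, which restrains mTORC1, went from 7.0 to 8.75, TSC22D3, the glucocorticoid-induced leucine zipper, from 8.12 to 9.32, and PIK3IP1, an inhibitor of PI3-kinase, from 7.01 to 7.99. KLHL24 (0.99), SESN1 (0.94), the insulin receptor INSR (0.70) and the pro-death gene BCL2L11 (0.68) were the others. Autophagy and lysosome genes had 6 of 33 higher and 0 lower, with a median of 0.20. Beside NPC1 and NPC2 they were WIPI1 (0.91), MAP1LC3B (0.76), SQSTM1 (0.69) and the protease CTSD (0.61). Of 23 targets of p53, 4 were higher (SESN1, DDB2, PMAIP1 and TP53I3, between 0.59 and 0.94) and 1 lower (GADD45B, -0.64). These were 17.4% and 4.35% of the list, beside 5.09% and 5.99% of all genes, with a median of 0.17. Ramos cells are known to carry mutant p53. In the BCL2 family 3 of 19 were higher (15.8%, beside 5.09% of all genes), BCL2L11, HRK (0.65) and PMAIP1 (0.61), and 0 lower.

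Of 32 genes of the B-cell receptor and lineage 2 were higher (6.25%, beside 5.09% of all genes) and 3 lower (9.38%, beside 5.99%). The median was -0.23, while medians of the list between KMH2 control replicates ran from -0.01 to 0.03. Past the noise were 20 of the 32, a share near the 57.1% of all genes. BANK1, a scaffold of receptor signalling, went from 7.15 to 8.54 and the kinase LYN was higher by 0.75. FCRL2 (-0.98), VPREB3 (-0.95) and CR2 (-0.67) were lower. CD79A, the receptor's signalling chain, was at 11.78 and 11.81 and IGHM, its heavy chain, at 7.55 and 7.94. Of 23 germinal centre genes 1 was higher and 5 lower (21.7%, beside 5.99% of all genes), with a median of -0.08. BCL6, the master factor of that stage, was at 10.72 and 10.63. TCL1A went from 10.96 to 9.88, but KMH2 control replicates differed by up to 0.86 for it, and ELL3 went from 8.63 to 7.77. Plasma cell genes had 1 of 15 higher, SLAMF7 (0.94), and 2 lower, JCHAIN, from 11.17 to 10.41, and ELL2 (-0.62). Among immunoglobulin genes a heavy-chain variable gene was lower (-0.87) and IGKC higher (0.83), and IGKC lay at 0.14 when its probe sets were averaged.

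The ligands of PD-1 differed at low signal. PDCD1LG2, the PD-1 ligand PD-L2, went from 4.75 to 6.36, CD274, PD-L1, from 5.16 to 5.83, and the chemokine CCL5 from 6.39 to 7.63. These genes and ID2 (0.70) made up the 4 higher genes of the 31 on the Hodgkin list (12.9%), of which 0 were lower. Targets of NF-kappaB had 1 of 36 higher (2.78%) and 2 lower (5.56%), CXCL10 (-0.91) and TNF (-0.82), with a median of -0.05. Those shares were no larger than the 5.09% and 5.99% of all genes. The JAK-STAT list had 3 of 26 higher (11.5%), JAK1 (0.96), JAK2 (0.82) and IL6ST (0.79), and 1 lower (3.85%), PIM1 (-0.76). Interferon-stimulated genes had 3 of 39 in each direction (7.69%, near the 5.09% and 5.99% of all genes), among them RIGI (-1.11) and IRF7 (0.85). MHC class I genes had 0 of 16 higher and 2 lower (12.5%), ERAP1 (-0.78) and PSMB8 (-0.66). MHC class II had 1 of 16 in each direction (6.25%, again near all genes), CD86 higher (0.77) and its master factor CIITA lower (-0.74). Chemokines and homing receptors had 1 of 24 higher (4.17%) and 2 lower (8.33%), including ITGB7 (-1.01), shares also near those of all genes. The list of NKG2D ligands and other stress and immune surface proteins had 1 of 16 higher (6.25%), MICA (0.59), and 2 lower (12.5%). The lower ones were RAET1L (-0.68, within the noise) and NCR3LG1, a ligand of the NK receptor NKp30 (-0.74).

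Few markers of other cell types were past 1.5-fold. T-cell and NK markers had 2 of 25 higher (8%, beside 5.09% of all genes), the T-cell adaptor TRAT1 (0.99) and the kinase LCK (0.96), and 0 lower. Of the 25 differences 16 were positive, and the summed log2 signal was 130.0 on rep 1 and 132.5 on rep 2. Myeloid markers had 1 of 17 higher (5.88%), FCER1G (0.64), with sums of 84.7 and 85.4. Fibroblast and epithelial markers had ACTA2 higher (0.87) and COL6A3 lower (-0.60) of 20, with 14 differences positive and sums of 104.8 and 107.4. Erythroid and platelet markers had 0 of 11 past 1.5-fold, with sums of 50.5 on both arrays. The median signals of these lists were 5.32, 5.18, 5.16 and 4.45, against 6.09 over all genes, on an array with no true zero. A Ramos array was at or above its median for 7 of 25, 3 of 17, 7 of 20 and 1 of 11. The sums thus rest mostly on dim genes and could miss a rise. The part of such genes in the Ramos difference was not tested.

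Of 356 olfactory receptors 7 were higher (1.97%, below the 5.09% of all genes), led by OR2AK2 (1.20) and OR5H14 (1.16), and 0 were lower. The list was dim, with a median signal of 3.98 against 6.09 over all genes. Of 63 keratin-associated proteins 0 were past 1.5-fold either way, and of 48 cancer-testis antigens only SSX3 (0.66) was. Of 486 zinc finger genes 31 were higher (6.38%) and 20 lower (4.12%), near the 5.09% and 5.99% of all genes, with a median of 0.03. They were led by ZNF521, from 4.43 to 6.63, and ZNF627 (1.24). Among 180 microRNA genes 0 were higher and MIR21 (-0.61) was lower. MIR570HG, a host transcript, went from 5.44 to 6.93. Long intergenic RNAs had 6 of 189 higher (3.17%) and 10 lower (5.29%), shares no larger than those of all genes, with LINC01963 (-1.42) and LINC00471 (-1.31) the widest.

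The KMH2 response to glucosamine was set beside the Ramos difference for the same genes. The comparisons share no array. In KMH2, limma called 2157 genes higher (12%) and 2534 lower (14.1%) at an adjusted p under 0.05. With the replicate number as a block it called 2541 higher and 2860 lower, and the calls below are from the fit without it. Of the 252 genes at least 2-fold higher on Ramos rep 2, 116 were called higher in KMH2 (46.0%) and 14 lower. Those 116 were 5.38% of all genes called higher in KMH2. Of the 227 genes at least 2-fold lower, 155 were called lower (68.3%) and 8 higher, and the 155 were 6.12% of all called lower. Across 17958 genes the correlation of the differences was 0.45 (Pearson) and 0.38 (Spearman), and across the 10656 genes with a Ramos array at or above the array median it was 0.51 and 0.50. Against differences between KMH2 replicates of the same group Pearson's r ran from -0.02 to 0.03 over all genes. These are descriptions across genes, which are not independent and which share the platform and the deposited table, and no treatment of a Ramos array was read from them.

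**Figure D5:**
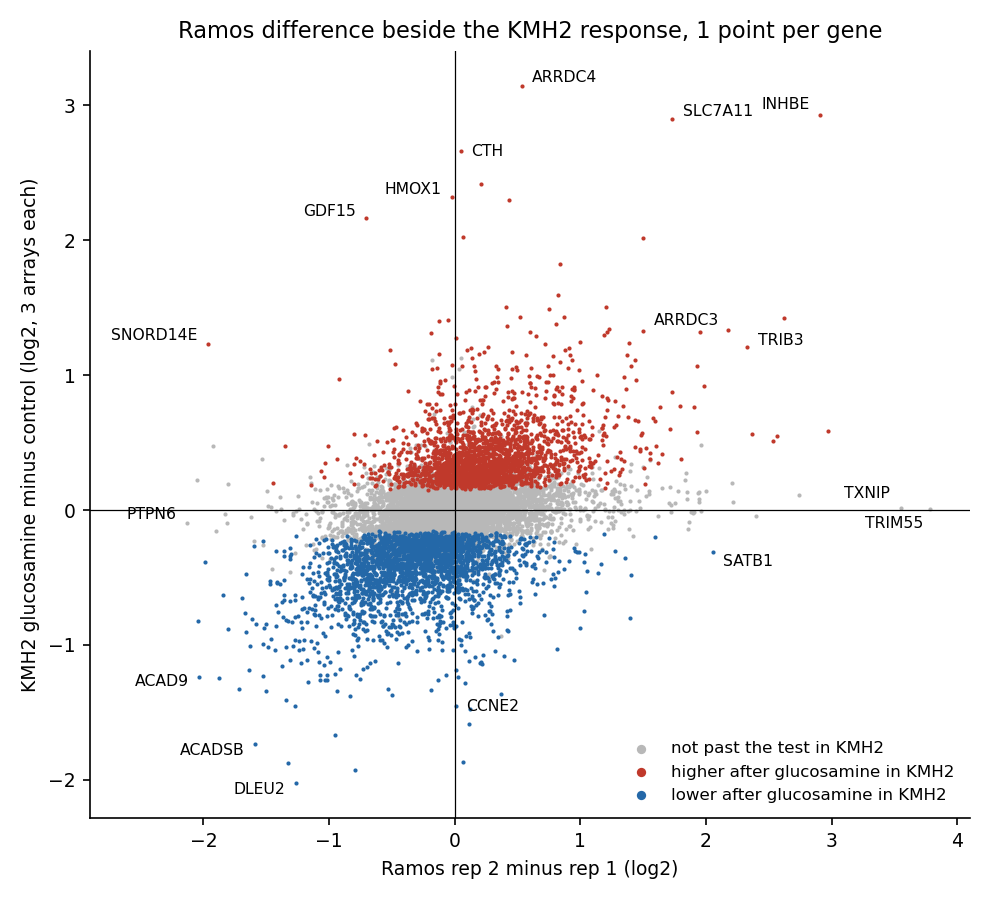
Ramos rep 2 minus rep 1 (horizontal, log2) and KMH2 glucosamine minus control (vertical, log2, 3 arrays each), 1 point per gene, coloured by the limma call in KMH2. INHBE and SLC7A11 lie high on both axes, TXNIP and TRIM55 on the horizontal axis only, and ARRDC4, CTH and HMOX1 high on the vertical axis; Y-linked genes and XIST are not drawn.

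Past 2-fold the same way in both lines were 51 genes, 18 higher and 33 lower. INHBE was higher by 2.91 in Ramos and by 2.93 ± 0.06 (SE) in KMH2 (limma adjusted p = 3.7e-07), and SLC7A11 by 1.73 and 2.90 ± 0.06. TRIB3, GCLM, SESN2, CCPG1, TCP11L2, ARRDC3 and SAT1, which acetylates polyamines, were among the others on the higher side. On the lower side were ACADSB, ACAD9, BCKDHB, PFAS, PRMT6, HK2, EXO1 and the histones H2BC14, H2AC15 and H3C1.

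The lists were set side by side in the same way. Of all genes 12% were called higher in KMH2 and 14.1% lower, which is the reference for the list counts. Replication genes had 31 of 35 called lower in KMH2, with a median of -0.51 beside -0.76 in Ramos, and ribosome biogenesis 18 of 30, with a median of -0.22 beside -0.58. ATF4 targets had 31 of 42 called higher in KMH2, with a median of 0.80 beside 0.29. For cholesterol synthesis 8 of 16 were called higher and 2 lower, with a median of 0.20 beside 1.14. MVD differed by 0.12 ± 0.07 (SE) in KMH2 and DHCR7 by -0.01. FOXO targets had 6 of 27 called higher and 7 lower in KMH2, with a median of 0.04 beside 0.27. Fatty acid synthesis had 1 of 24 called higher and 9 lower, with a median of -0.05 beside 0.19. The Hodgkin list had 4 of 31 called higher and 12 lower, with a median of -0.16 beside 0.06, and the hypoxia list had 6 of 27 called higher and 5 lower, with a median of 0.01 beside -0.16. Whether these values differ between the lines was not tested, since the Ramos difference has no replicates.

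Some genes had a wide difference in 1 comparison and a narrow one in the other. TXNIP and TRIM55 differed by 0.01 each in KMH2, and SLC6A9 by 0.06. Conversely ARRDC4 rose by 3.15 ± 0.09 (SE) in KMH2, CTH by 2.66 and HMOX1 by 2.32, and their Ramos differences were 0.54, 0.05 and -0.03. CCNE2 had a difference of -1.45 in KMH2 and of 0.01 in Ramos. Opposite in sign, past 2-fold in Ramos and called in KMH2, with a bright Ramos array and past the noise, were 20 genes. They included SNORD14E (1.23 in KMH2), SNORD14C, FOXP2, PRKACB, EBP, SATB1 and ID3, and were named after their values were seen.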

How the data were processed

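Per the labels' protocols, biotin-labelled cDNA from total RNA was hybridised to HuGene-1_1-st-v1 strips of Affymetrix. The deposited values are log2 signals per probe set, for 33297 probe sets on 8 arrays, with no missing values, from 1.935 to 13.213. The log scale was read from the values. No source used here states the summarization and normalization behind the authors' table, and background in low signals shrinks the folds of dim genes. For arrays their number limits the precision, and the Ramos difference rests on 2 of them.

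Gene names came from the 2016 annotation of the platform. It gave 1 symbol to 19181 probe sets and several to 2055, left 12061 unlisted, and matched the RefSeq table of GRCh38.p14 for 19143 by Entrez identifier and not for 38. Of 17958 genes 895 had several probe sets, and in 0 of these were probe sets past 1.5-fold in opposite directions. No test was made between the Ramos arrays. KMH2 glucosamine minus control was fitted in R 4.3.3 with limma 3.58.1 (6 arrays, lmFit followed by eBayes, two-sided, Benjamini-Hochberg adjustment over 19181 probe sets, threshold 0.05), a step checked on simulated data. Whether the replicate numbers pair the KMH2 samples was checked on deviations from the group means. Arrays of the same number correlated at 0.46, 0.23 and 0.23 for numbers 1, 2 and 3. Different numbers gave -0.37 to 0.25, with 0.25 for control 2 and glucosamine 3 and 0.18 for control 3 and glucosamine 2. These values set number 1 apart but cannot tell number 2 from number 3. Pairing by number was therefore an assumption of the replicate block. The KMH2 values given here come from the fit without the replicate block, which was the main design, and the block was an alternative. Tables and figures were made in Python 3.11.15 with pandas 2.3.3 and matplotlib 3.10.9.

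The comparison, the genes and the 46 gene lists were chosen with earlier results of these data known, and 7 more lists were added after the values were seen. Named by rule were the 15 highest and 15 lowest genes among those past the noise with a Ramos array at or above its median, the 2 members of each list with the widest difference, and 17 genes of interest. Other members were named after their values were seen. Y-linked genes and XIST were not named. Alternatives were quantile normalization over the 8 arrays, loess between the Ramos arrays (span 0.4), leaving out dim genes, averaging a gene's probe sets, counting every probe set, other noise references, the replicate block and leaving out each KMH2 array.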

Additional observations from a re-analysis of the deposited data

How the results depend on the processing

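The Ramos counts kept their size under every alternative run. Under these, genes at least 2-fold higher numbered 239 to 268, at least 2-fold lower 198 to 245, at least 1.5-fold higher 822 to 984 and at least 1.5-fold lower 1003 to 1132. Genes past 1.5-fold and past the noise numbered 1839 to 2104, 1978 to 1989 without 1 KMH2 control replicate, and 1967 with KMH2 glucosamine replicates as the reference. The KMH2 count of 4956 probe sets was 5748 with a replicate block, 4932 after quantile normalization, 5016 of 11328 bright probe sets, and 3600 to 5304 without 1 array. With the block, 0 of the KMH2 calls among genes named by rule (35 higher, 40 lower) were lost and 6 were gained, and of the Ramos genes past 2-fold 127 of 252 were called higher and 164 of 227 lower. Of the 135 genes named by rule 114 were past 1.5-fold, and 5 of these lay within it under an alternative: MAD2L1 (-0.58) and COL6A3 (-0.55) after quantile normalization, and NDUFS4 (0.27), IGKC (0.14) and SCD (0.40) with probe sets averaged. No named gene changed sign. Without dim genes the median changed sign for 5 lists near 0, chemokines and homing receptors (0.066), myeloid (-0.057) and fibroblast and epithelial markers (-0.045), long intergenic RNAs (0.059) and cancer-testis antigens (-0.08). The median also moved for ATF4 (0.51), NRF2 (0.24), MondoA (0.26) and FOXO targets (0.45), immediate early (-0.18) and hypoxia genes (-0.30), branched-chain and fatty acid oxidation (-0.42), T-cell and NK markers (0.15), erythroid and platelet markers (0.22) and olfactory receptors (0.09). Each side of the Ramos difference is 1 array, so its own replicate error is unknown, and the noise reference comes from another cell line.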
